A study of Homo sapiens with 8 samples.

Results

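The expressed ZNF genes are the genes with a symbol made of ZNF and a number (with or without a closing letter) whose brightest probe set had a mean log2 level of at least 6 over all 8 arrays. This rule found 315 genes among 471 ZNF genes with a probe set, and among 8930 genes that passed the filter on low values and were tested. All 315 were among the tested genes. The genes were chosen by their measured mean level, so their levels are given as a description and no test rests on them. Just inside the threshold lay ZNF347 (6.10), ZNF616 (6.10), ZNF180 (6.10), ZNF486 (6.09) and ZNF92 (6.01), and just outside lay ZNF497 (5.99), ZNF41 (5.99), ZNF683 (5.99), ZNF345 (5.98) and ZNF567 (5.98). Of the 156 ZNF genes below the level, 68 were tested, and the others lay under the filter level of 5.18.

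The arrays came from CCRF-CEM and HPB-ALL, established cell lines of T-cell acute lymphoblastic leukaemia. Cells of each line carried 1 of 2 hairpins against TOX (shTOX-1 or shTOX-2) or a scramble hairpin, all delivered by spinoculation, selected with puromycin and kept for at least 2 weeks; the fourth array of each line held untransduced cells, which had no hairpin. TOX encodes a nuclear HMG-box protein that developing T cells require. Biotin-labelled material made from total RNA was hybridised to 1 array per line and construct, which gives 4 shTOX, 2 scramble and 2 untransduced arrays. Each array held a different pair of line and construct, and the labels name no repeat culture of any pair. The spread behind each p-value therefore includes differences between constructs or lines as well as measurement error, which cannot be told apart. It does not show how far repeat cultures of the same cells would vary. With so few arrays, every value below is imprecise. The values are bulk levels, in which fewer cells of a type and less RNA per cell cannot be told apart.

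ZNF genes encode proteins that mostly carry arrays of C2H2 zinc fingers, small folds held by a zinc ion that read DNA bases. Many also carry a KRAB domain, which binds TRIM28 (also called KAP1); TRIM28 in turn brings the histone H3 lysine 9 methyltransferase SETDB1, heterochromatin protein 1 and the NuRD deacetylase, so that the bound DNA is silenced. KRAB zinc finger genes multiplied by local duplication, stand in clusters, above all on chromosome 19, and many bind retrotransposons. A minority of ZNF genes do other work, such as promoter activation (ZNF143), splicing (ZNF326), ribosome assembly (ZNF622) or spindle assembly (ZNF207).

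Of the 315 genes, 151 (47.9%) lay on chromosome 19, where 6.82% of the other tested genes lay. The annotation lists 313 as protein-coding and 2, ZNF271P and ZNF767P, as pseudogenes. A single probe set represented 302 of them. Mean levels ran from 6.01 to 10.92 with a median of 7.47 and quartiles of 6.87 and 8.21. The brightest were ZNF121 (10.92), ZNF207 (10.77, a spindle and kinetochore protein), ZNF100 (10.18), ZNF384 (10.02, a transcription factor fused to other genes in B cell leukaemias), ZNF521 (10.02, a cofactor of blood stem and progenitor cells), ZNF75A (9.80), ZNF317 (9.75), ZNF266 (9.73), ZNF146 (9.62) and ZNF280C (9.60). Levels of different probe sets are set side by side here only to order them by brightness. Many of these genes are recent duplicates with similar sequence, so a probe set may also read a paralogue; values of near neighbours are uncertain in that respect.

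Promoter sequences are shown for 7 genes on which the results below turn, taken from RefSeq (GRCh38.p14) as 250 bases before and 50 bases after the annotated start, 5′ to 3′ on the gene's strand, with CG dinucleotides in capitals. ZNF141 (chr4:337564-337863, plus strand), ZNF43 (chr19:21836133-21836432, minus strand), ZNF184 (chr6:27473056-27473355, minus strand) and ZNF280D (chr15:56733460-56733759, minus strand) are shown because they differed most between the lines.
ZNF141: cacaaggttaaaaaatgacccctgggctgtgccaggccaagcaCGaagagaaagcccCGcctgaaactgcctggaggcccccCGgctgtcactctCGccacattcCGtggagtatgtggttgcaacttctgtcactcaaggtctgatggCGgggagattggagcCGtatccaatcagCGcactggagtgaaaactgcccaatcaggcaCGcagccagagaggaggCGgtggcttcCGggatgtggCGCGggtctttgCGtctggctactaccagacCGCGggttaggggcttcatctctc
ZNF43: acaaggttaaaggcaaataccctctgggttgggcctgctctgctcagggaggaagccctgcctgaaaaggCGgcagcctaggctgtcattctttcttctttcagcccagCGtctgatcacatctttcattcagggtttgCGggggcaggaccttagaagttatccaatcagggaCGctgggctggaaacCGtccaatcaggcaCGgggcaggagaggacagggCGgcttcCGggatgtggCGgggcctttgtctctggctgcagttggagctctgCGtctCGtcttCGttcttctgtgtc
ZNF184: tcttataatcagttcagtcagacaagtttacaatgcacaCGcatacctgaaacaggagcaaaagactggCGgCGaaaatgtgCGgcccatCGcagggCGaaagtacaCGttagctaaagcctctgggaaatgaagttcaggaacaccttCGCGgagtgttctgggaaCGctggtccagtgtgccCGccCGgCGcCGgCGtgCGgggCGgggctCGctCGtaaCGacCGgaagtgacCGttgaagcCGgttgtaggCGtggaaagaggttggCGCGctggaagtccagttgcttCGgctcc
ZNF280D: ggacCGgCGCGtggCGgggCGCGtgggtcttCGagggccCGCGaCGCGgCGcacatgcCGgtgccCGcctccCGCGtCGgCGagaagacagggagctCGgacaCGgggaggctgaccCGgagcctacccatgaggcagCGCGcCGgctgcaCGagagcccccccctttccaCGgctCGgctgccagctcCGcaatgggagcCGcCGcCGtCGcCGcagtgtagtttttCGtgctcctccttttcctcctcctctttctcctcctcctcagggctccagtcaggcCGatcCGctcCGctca

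ZNF100 (chr19:21767530-21767829, minus strand) and ZNF91 (chr19:23395422-23395721, minus strand) lie in the same stretch of chromosome 19 as ZNF43 and had smaller differences between the lines. ZNF91 and ZNF529 (chr19:36605208-36605507, minus strand) are the genes that passed the test as lower in scramble than in untransduced cells.
ZNF100: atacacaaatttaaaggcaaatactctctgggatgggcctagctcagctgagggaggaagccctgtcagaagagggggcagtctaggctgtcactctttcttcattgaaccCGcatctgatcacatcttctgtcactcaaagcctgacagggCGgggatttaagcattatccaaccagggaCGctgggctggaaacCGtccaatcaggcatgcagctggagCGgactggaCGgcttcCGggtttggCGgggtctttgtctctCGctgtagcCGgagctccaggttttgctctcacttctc
ZNF91: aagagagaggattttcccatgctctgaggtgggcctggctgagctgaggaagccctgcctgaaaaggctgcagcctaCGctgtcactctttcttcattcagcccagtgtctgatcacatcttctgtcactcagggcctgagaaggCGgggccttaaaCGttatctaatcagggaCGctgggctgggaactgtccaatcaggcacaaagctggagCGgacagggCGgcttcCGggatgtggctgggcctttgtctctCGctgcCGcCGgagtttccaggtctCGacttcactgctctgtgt
ZNF529: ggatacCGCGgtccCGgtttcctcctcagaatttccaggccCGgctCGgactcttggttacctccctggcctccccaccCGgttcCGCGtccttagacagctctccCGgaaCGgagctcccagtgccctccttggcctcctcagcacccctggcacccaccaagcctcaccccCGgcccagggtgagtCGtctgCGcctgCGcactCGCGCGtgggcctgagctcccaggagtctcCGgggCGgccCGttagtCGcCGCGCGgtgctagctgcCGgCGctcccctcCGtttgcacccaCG

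In pairwise global alignment, ZNF43 and ZNF91 shared 79.0% of aligned columns, ZNF43 and ZNF100 77.7%, and ZNF100 and ZNF91 77.2%. The promoter of ZNF141, on chromosome 4, shared 67.1% with that of ZNF43, 67.0% with that of ZNF100 and 65.5% with that of ZNF91. The remaining pairs shared between 46.9% and 55.4%. The count of CG dinucleotides was 37 in ZNF280D, 28 in ZNF529, 27 in ZNF184, 16 in ZNF141, 12 in ZNF43, 11 in ZNF91 and 10 in ZNF100.

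Promoters were found by gene ID for 278 of the 315 genes and held a median of 23 CG dinucleotides, against 22 in all 15843 protein-coding promoters of the same length. Searched on both strands, the cyclic AMP response element TGACGTCA stood in 5.04% of the ZNF promoters and 2.59% of all, the ZNF143 motif in 5.04% and 1.59%, the YY1 motif AANATGGC in 12.2% and 7.92%, and the NRF1 motif in 12.9% and 8.58%. The TATA motif TATAAA stood in 3.24% of the ZNF promoters and 9.63% of all. Each motif was counted separately, whether or not it overlapped another. The ZNF promoters are those of genes chosen by their level, while the 15843 promoters were taken whatever the level of their genes. The shares therefore do not separate ZNF genes from expressed genes. Of the 7 promoters printed, that of ZNF529 held the NRF1 motif and the others held none of the 5 motifs. A match is a description of letters and not of a bound site.

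TOX, the target of the hairpins, in CCRF-CEM was at a log2 level of 10.65 under the first hairpin (shTOX-1) and 9.86 under the second (shTOX-2), against 11.03 in both scramble and untransduced cells. In HPB-ALL it was at 10.16 and 8.75 in shTOX-1 and shTOX-2 cells, against 10.59 in scramble and 10.64 in untransduced cells. All 4 shTOX arrays thus lay below the controls of their line, while the difference of -0.96 ± 0.28 (SE) missed the threshold over all genes (limma with Benjamini-Hochberg adjustment, adjusted p = 0.292). The hairpins enter this difference as 1 group, so the gap between shTOX-1 and shTOX-2 is part of its SE. As a check of the labelled cell type, 8 of 9 measured T cell markers had a mean of at least 6, and all 8 were higher in CCRF-CEM than in HPB-ALL by the same test. CD2 (4.98) lay under the filter level. Of the B cell and myeloid markers none reached a mean of 6, while 1 of 3 NK cell markers, 1 of 3 erythroid and megakaryocyte markers and 2 of 5 fibroblast and epithelial markers (KRT8 and KRT18) did. Over the ZNF genes, arrays correlated at 0.919 to 0.970 within a line and at 0.602 to 0.670 between lines.

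The first comparison set CCRF-CEM against HPB-ALL, with 4 arrays each. The share of ZNF genes that differed was near that of genes in general. In limma with Benjamini-Hochberg adjustment at 0.05, 101 of the 315 genes (32.1%) were called, against 27.4% of all tested genes. Of these, 50 were higher in CCRF-CEM (background 12.4%) and 51 were lower (background 14.9%). The arrays of the lines did not overlap for 50 genes with CCRF-CEM above (background 12.8%) and for 36 with HPB-ALL above (background 14.2%). A difference of at least 1 on the log2 scale was seen for 28 genes higher in CCRF-CEM (8.89%; background 4.56%) and 3 higher in HPB-ALL (0.952%; background 3.77%), and a difference of at least 2 for 11 and 1 (background 1.96% and 0.851%). All 7 genes with a difference of at least 3 were higher in CCRF-CEM (2.22% of the ZNF genes, against 0.795% of all tested genes); on the HPB-ALL side 0.19% of all tested genes passed that size. All 7 had an HPB-ALL mean between 3.64 and 5.42 and so reached the level of the set only through CCRF-CEM, and nothing is read from the side on which they lie. A mean of at least 6 was reached in both lines by 290 genes, of which 34 were called higher and 45 lower in CCRF-CEM. Among these 290, a difference of at least 1 was seen for 14 genes higher in CCRF-CEM (4.83%) and 1 higher in HPB-ALL (0.345%). The shares were 2.2% and 2.67% of the 6780 tested genes with such means. Calls were not counted over those 6780 genes. Of the 7202 genes with a mean of at least 6 over all arrays, 12% were called higher and 16% lower in CCRF-CEM. A mean of at least 6 was reached in CCRF-CEM only by 16 genes and in HPB-ALL only by 9; genes of this kind enter the set through 1 line, so their difference is partly fixed by the choice.

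**Figure D1:**
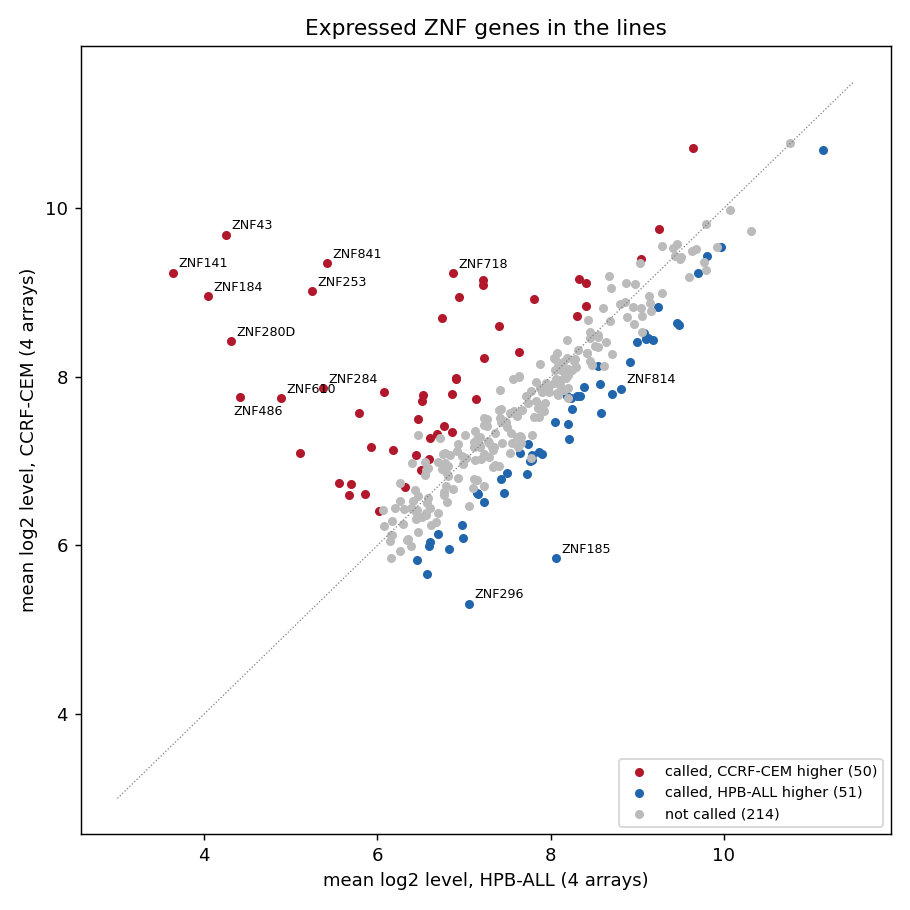
Mean log2 level of the 315 expressed ZNF genes in CCRF-CEM (vertical axis, 4 arrays) against HPB-ALL (horizontal axis, 4 arrays), 1 point per gene, with calls at an adjusted p under 0.05 in colour (50 higher in CCRF-CEM, 51 higher in HPB-ALL, 214 not called) and the dotted line marking equal levels. The 7 genes that lie at least 3 above the line, among them ZNF141, ZNF43 and ZNF184, all have an HPB-ALL mean of 5.42 or less and entered the set through their CCRF-CEM level.

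ZNF141 and ZNF43, both KRAB zinc finger genes, differed most. Values per array follow in the order shTOX-1, shTOX-2, scramble and untransduced. ZNF141 was at 8.59, 8.99, 9.30 and 10.07 on the CCRF-CEM arrays, against 4.16, 3.18, 3.48 and 3.74 on the HPB-ALL arrays. ZNF43 was at 9.52, 9.79, 9.87 and 9.58 on the CCRF-CEM arrays, against 4.0, 4.47, 4.40 and 4.14 on the HPB-ALL arrays. For both genes every CCRF-CEM array was far above every HPB-ALL array. The differences were 5.60 ± 0.28 for ZNF141 (adjusted p = 3.9e-07) and 5.43 ± 0.14 for ZNF43 (adjusted p = 1.7e-08). In HPB-ALL both were under 5.18, the filter level, where background limits the size of a difference. Of the 16 genes with a mean of at least 6 in CCRF-CEM only, 7 had an HPB-ALL mean under that level.

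ZNF184, a KRAB zinc finger gene on chromosome 6, was at 8.85, 8.56, 9.01 and 9.41 on the CCRF-CEM arrays, against 4.13, 3.88, 3.83 and 4.36 on the HPB-ALL arrays. ZNF280D on chromosome 15, a homologue of the fly insulator protein Suppressor of Hairy wing, was at 8.12, 8.51, 8.24 and 8.81 on the CCRF-CEM arrays, against 4.43, 3.87, 4.44 and 4.48 on the HPB-ALL arrays. Again no array of one line came near the other line, with differences of 4.91 ± 0.17 for ZNF184 and 4.12 ± 0.17 for ZNF280D. ZNF841 was at 8.99, 9.22, 9.32 and 9.87 on the CCRF-CEM arrays, against 5.55, 5.29, 5.99 and 4.84 on the HPB-ALL arrays (difference 3.93 ± 0.24). The next in size were ZNF253 (3.77 ± 0.15), ZNF486 (3.34 ± 0.15), ZNF610 (2.86 ± 0.30), ZNF284 (2.49 ± 0.24), ZNF718 (2.36 ± 0.15), ZNF256 (2.01 ± 0.23) and ZNF347 (2.00 ± 0.16), all with KRAB domains. Among them ZNF718 and ZNF256 were also above 6 in HPB-ALL, at means of 9.23 in CCRF-CEM against 6.87 in HPB-ALL for ZNF718, and 8.95 against 6.94 for ZNF256.

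The genes higher in HPB-ALL differed less and were of mixed kind. ZNF185, which despite its name encodes an actin-associated LIM-domain protein, was at 5.92, 5.62, 5.74 and 6.11 on the CCRF-CEM arrays, against 8.37, 7.84, 7.95 and 8.10 on the HPB-ALL arrays. ZNF296, a C2H2 protein known from mouse for its part in reprogramming to pluripotency, was at 5.37, 5.38, 5.29 and 5.19 on the CCRF-CEM arrays, against 7.10, 7.18, 6.71 and 7.25 on the HPB-ALL arrays. In both genes the HPB-ALL arrays stood above all CCRF-CEM arrays, by a difference of -2.22 ± 0.16 for ZNF185 (adjusted p = 3.8e-06) and -1.75 ± 0.13 for ZNF296 (adjusted p = 5.9e-06). Of called genes whose arrays did not overlap between the lines, to which the naming rule was limited, the next in size were ZNF814 (-0.96 ± 0.17), ZNF157 (-0.91 ± 0.19), ZNF768 (-0.91 ± 0.17), ZNF823 (-0.90 ± 0.15) and ZNF74 (-0.89 ± 0.11). ZNF318, whose mouse counterpart governs IgD splicing in B cells, followed at -0.86 ± 0.11, then ZNF652, a partner of the corepressor CBFA2T3, at -0.82 ± 0.13. The list of 12 closed with ZNF195 (-0.82 ± 0.17), ZNF343 (-0.78 ± 0.14) and ZNF593 (-0.76 ± 0.14), a ribosome assembly factor. Among called genes outside that limit on this side ZNF33B had the largest difference, -1.01, with arrays that overlapped between the lines; it was named after its values were seen.

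Some genes that differed in the same direction stood side by side: 25 of the 101 called genes lay in 11 runs of 2 or 3 neighbours. Such runs were not counted over all tested genes, and how many would arise in a random order was not tested. The count is therefore a description only. On chromosome 19, the 15 consecutive expressed ZNF genes from ZNF253 to ZNF91 held 10 that were called higher in CCRF-CEM (background 12.4%). They were ZNF253, ZNF93, ZNF486, ZNF737 and ZNF85 at one end, and ZNF429, ZNF100, ZNF43, ZNF492 and ZNF91 at the other. The 5 between them were not called, and their differences were -0.37 ± 0.36 for ZNF430, 0.58 ± 0.20 for ZNF714, 0.24 ± 0.18 for ZNF431, -0.18 ± 0.24 for ZNF708 and 0.12 ± 0.29 for ZNF493. The stretch begins and ends at called genes, so the share of calls within it is partly fixed by that choice. ZNF253, ZNF486 and ZNF43 had HPB-ALL means of 5.24, 4.42 and 4.25 and entered the set through their CCRF-CEM level. Within this stretch ZNF100 was at 10.38, 10.65, 10.73 and 11.08 on the CCRF-CEM arrays, against 9.80, 9.54, 9.26 and 9.98 on the HPB-ALL arrays. It was thus bright in both lines, with a difference of 1.07 ± 0.18, next to ZNF43, which was bright in CCRF-CEM alone. Runs of 3 called genes with no other tested gene between them were ZNF429, ZNF100 and ZNF43 on the higher side, and ZNF558, ZNF317 and ZNF699 as well as ZNF665, ZNF845 and ZNF765 on the lower side. On chromosome 4, ZNF718 and ZNF141 are neighbours. Among the 5 expressed ZNF genes there, 4 were called higher in CCRF-CEM (background 12.4%), the others being ZNF518B (1.11 ± 0.14) and ZNF827 (1.21 ± 0.14). ZNF330 (-0.42 ± 0.11) was called lower (background 14.9%). Calls over the other genes of chromosome 4 were not counted, and 5 genes are too few to describe the chromosome. ZNF141, with an HPB-ALL mean of 3.64, also entered the set through its CCRF-CEM level. Over all of chromosome 19, 28 of the 151 genes were called higher and 28 lower, against 12.4% and 14.9% of all tested genes. Of the 583 other tested genes of chromosome 19, 37 were called higher and 91 lower. Some of the 28 higher genes, ZNF43 among them, entered the set through their CCRF-CEM level.

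**Figure D2:**
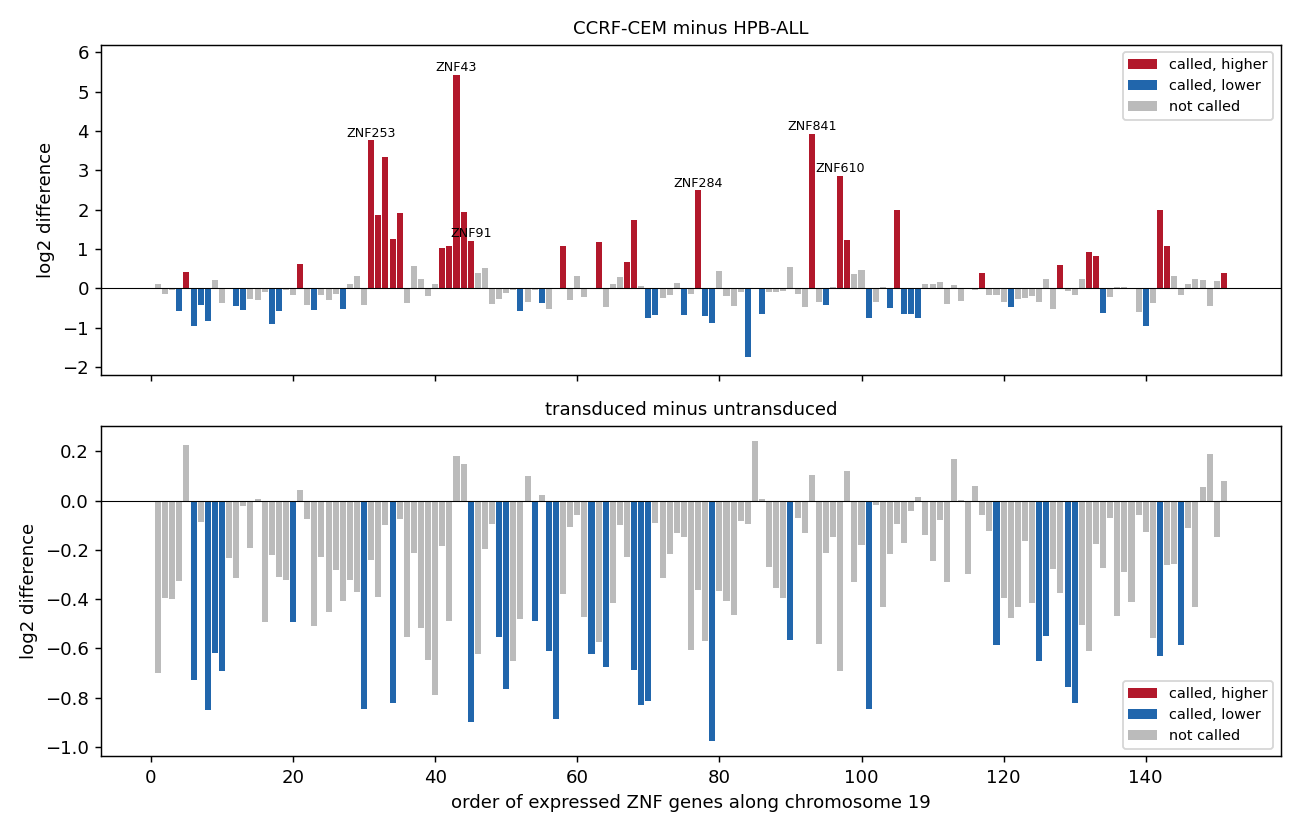
Log2 difference of each of the 151 expressed ZNF genes of chromosome 19, as 1 bar per gene in their order along the chromosome, for CCRF-CEM minus HPB-ALL (top) and transduced minus untransduced arrays (bottom), with calls at an adjusted p under 0.05 in colour. Differences between the lines fall on both sides (28 called higher and 28 lower, against 12.4% and 14.9% of all tested genes). A stretch of tall bars lies around ZNF43. In the lower panel 133 of the 151 bars point down. Some of the tallest bars, such as that of ZNF43, are of genes that entered the set through their CCRF-CEM level.

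Sorted by known role, the 7 ZNF proteins listed as binders of retrotransposons and repeats were 4 higher and 1 lower in CCRF-CEM (background 12.4% and 14.9%). The median was 1.07 over the list against -0.00562 over all tested genes. ZNF93, a repressor of LINE-1 elements, was at 8.82, 9.37, 9.15 and 9.02 on the CCRF-CEM arrays, against 7.36, 6.70, 6.96 and 7.88 on the HPB-ALL arrays. ZNF91, a repressor of SVA elements, was at 7.43, 7.56, 7.46 and 8.43 on the CCRF-CEM arrays, against 6.64, 6.26, 6.05 and 7.10 on the HPB-ALL arrays. Both were called, at 1.87 ± 0.23 for ZNF93 and 1.21 ± 0.26 for ZNF91, and so was ZNF382 (1.07 ± 0.16). ZNF10, or KOX1, whose KRAB domain is used in synthetic repressors, lay below the level for the set (mean 5.64) and differed by 2.29 ± 0.16. Its HPB-ALL mean of 4.49 lay under the filter level of 5.18, so it was tested only through its CCRF-CEM level. ZNF765, which binds LINE-1 elements, was lower at -0.74 ± 0.12. ZNF274, which brings SETDB1 to ZNF genes themselves, and ZNF649 were not called, at -0.17 ± 0.18 and -0.08 ± 0.14.

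The counts of the lists that follow stand against calls for 12.4% of all tested genes on the higher side and 14.9% on the lower side. Of the 9 tested ZNF proteins listed as corepressor partners, 5 were higher in CCRF-CEM and none was lower. They were ZNF827, which recruits NuRD to telomeres (1.21 ± 0.14), ZNF217 of the CoREST complex (0.66 ± 0.19), ZNF592 of the ZMYND8 module (0.51 ± 0.12), ZNF609, a partner of Integrator (0.49 ± 0.13), and ZNF512B (0.43 ± 0.11). None of the 9 promoter-bound activators was called, ZNF143 among them at 0.20 ± 0.13. In the list for RNA processing, ZNF385A (0.76 ± 0.17) and ZNF326 (0.36 ± 0.11) were higher among 6. In the lymphoid and leukaemia list, ZNF362 (0.71 ± 0.16) and ZNF217 were higher among 6, while ZNF521 was not called at -0.59 ± 0.26. Of the ribosome and translation list, ZNF593 was lower among 3, and of the mitosis and genome maintenance list none of 3 was called. Of 15 KRAB repression complex genes 1 was called, CHD3 of NuRD (-0.56 ± 0.17), and TRIM28 had a difference of 0.01 ± 0.14. Of 8 DNA methylation genes DNMT3A (0.74 ± 0.12) and TET1 (0.95 ± 0.18) were higher in CCRF-CEM, and of 3 HUSH complex genes none was called.

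The second comparison set the 6 transduced arrays (shTOX and scramble) against the 2 untransduced arrays, with line as a term. The difference is the average of the shTOX mean and the scramble mean, with equal weight, minus the untransduced mean, so each of the 2 scramble arrays counts for more than each of the 4 shTOX arrays. It covers whatever went with spinoculation, a hairpin, selection and the time in culture, which cannot be told apart in this design. More ZNF genes were lower in transduced cells than among genes in general. In limma with Benjamini-Hochberg adjustment, 36 of 315 (11.4%) were called lower, against 4.18% of all tested genes, and 0 were called higher, against 4.71%; 4 were higher at an unadjusted p under 0.05. The difference was negative for 252 genes (80.0%), with a median of -0.24, while 46.0% of all tested genes were negative and their median was 0.03. The largest of the called differences was -0.98.

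Each line was then taken alone. In CCRF-CEM, the untransduced array stood above all 3 others for 199 ZNF genes (63.2%), against 30.5% of all tested genes, and the median of transduced minus untransduced was -0.276. In HPB-ALL it stood above all others for 161 (51.1%), against 27.9%, with a median of -0.204. In both lines together, all transduced arrays lay below the untransduced array for 128 genes (40.6%; background 16.7%) and above it for 10 (3.17%; background 20.5%). Against the untransduced array of its line, the median of the ZNF genes was -0.281, -0.296 and -0.201 on the shTOX-1, shTOX-2 and scramble arrays of CCRF-CEM. It was -0.134, -0.215 and -0.325 on those of HPB-ALL. Every transduced array thus had a lower median than its untransduced array, and the scramble array was the highest of the 3 in CCRF-CEM and the lowest in HPB-ALL. The same medians over all tested genes ran from 0.015 to 0.0683.

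**Figure D3:**
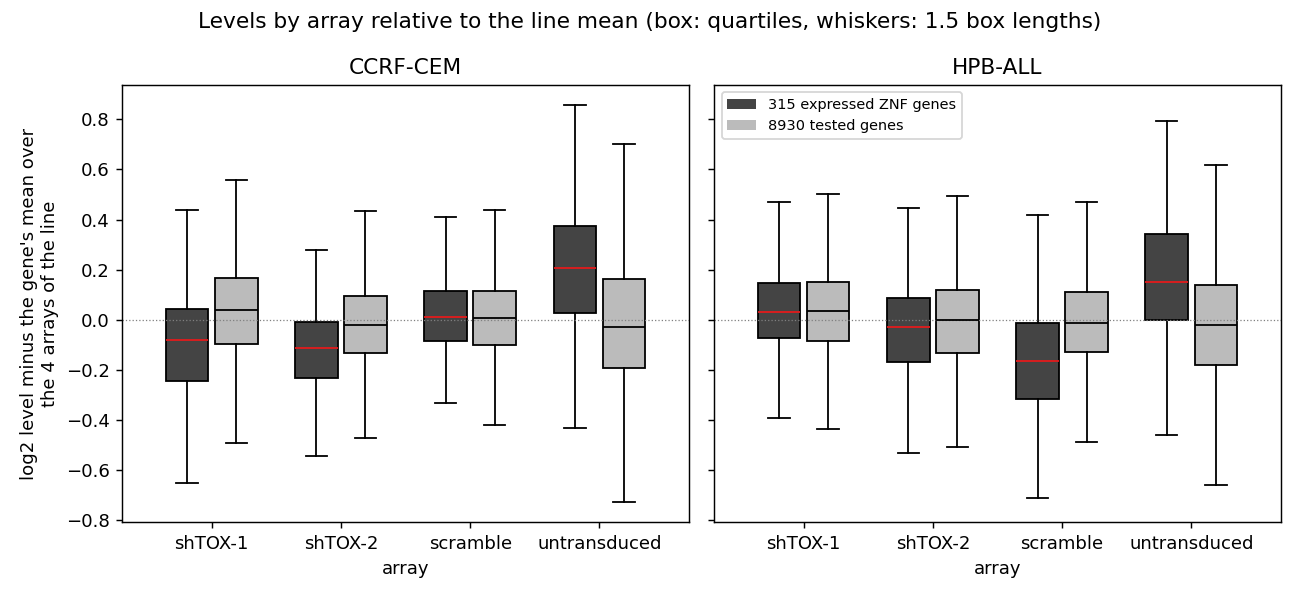
Log2 level on each array minus the gene's mean over the 4 arrays of its line, as boxes (quartiles, median line and whiskers of up to 1.5 box lengths) for the 315 expressed ZNF genes (dark) and the 8930 tested genes (light), by construct and line. The ZNF boxes of the untransduced arrays stand above 0 in both lines, with 63.2% of the genes highest on that array in CCRF-CEM and 51.1% in HPB-ALL, while the boxes of all tested genes stay centred near 0.

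More calls lay on chromosome 19, with 28 of 151 genes (18.5%) lower, against 8 of the 164 ZNF genes on other chromosomes (4.88%). Their medians were -0.321 on chromosome 19 and -0.172 elsewhere, and 88.1% and 72.6% of the differences were negative. The 583 other tested genes of chromosome 19 had 3.09% lower, 6.17% higher and a median of 0.111. Neighbours called together were ZNF699, ZNF559 and ZNF266 on chromosome 19, and pairs such as ZNF780B with ZNF780A and ZNF419 with ZNF773. Genes of other C2H2 families with a mean of at least 6 (ZBTB, ZSCAN, ZKSCAN, ZFP, KLF, IKZF and PRDM) had a median of -0.229 over 72 genes, of which 73.6% were negative, 5 were called lower and 1 higher.

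ZNF225, a KRAB zinc finger gene of chromosome 19, had the largest difference. It was at 5.63, 5.33 and 6.05 on the shTOX-1, shTOX-2 and scramble arrays of CCRF-CEM, against 6.81 in untransduced cells. In HPB-ALL it was at 6.78, 6.51 and 6.53 on the shTOX-1, shTOX-2 and scramble arrays, against 7.50 in untransduced cells. The untransduced array was the highest in each line, and the difference was -0.98 ± 0.18 (adjusted p = 0.016). ZNF91 was at 7.43, 7.56 and 7.46 on the transduced arrays of CCRF-CEM, against 8.43 in untransduced cells, and at 6.64, 6.26 and 6.05 in HPB-ALL, against 7.10. ZNF529, also with a KRAB domain, was at 8.16, 8.10 and 8.14 on the transduced arrays of CCRF-CEM, against 8.89 in untransduced cells, and at 8.32, 8.12 and 7.80 in HPB-ALL, against 9.03. In these genes the scramble array lay on the shTOX side of the untransduced one, as the rule by which they were named requires. Their differences were -0.90 ± 0.15 for ZNF91 (adjusted p = 0.012) and -0.89 ± 0.14 for ZNF529 (adjusted p = 0.0093).

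ZNF699 was at 6.30, 6.12 and 6.60 on the transduced arrays of CCRF-CEM, against 7.48 in untransduced cells, and at 7.32, 7.20 and 7.37 in HPB-ALL, against 7.94. It too was highest in untransduced cells of each line (-0.85 ± 0.15). The pseudogene ZNF767P (-0.89 ± 0.19), ZNF14 (-0.85 ± 0.18), ZNF83 (-0.84 ± 0.20) and ZNF780B (-0.83 ± 0.20) complete the 8 with the largest differences whose untransduced array lay above the other 3 in both lines. The remaining 28 called genes lay between -0.49 and -0.82. Among the binders of retrotransposons and repeats, 6 of 7 were negative, where 80% of all 315 ZNF genes were. ZNF91 and ZNF274 (-0.59 ± 0.12) were the 2 called, against 11.4% of the ZNF genes and 4.18% of all tested genes called lower. The median over the 7 was -0.394, against -0.241 over the 315. The 7 include ZNF10, which is not among the 315. No gene of the lists for promoter-bound activators, corepressor partners, RNA processing, ribosome and translation, mitosis, or lymphoid and leukaemia was called. On the higher side no gene passed, and the 8 of smallest p with both untransduced arrays lowest lay between 0.24 for ZNF76 and 0.38 for ZNF689. They include ZNF511 (0.37 ± 0.14, adjusted p = 0.122) and ZNF341, an activator of STAT3 transcription in human cells (0.32 ± 0.12, adjusted p = 0.142).

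**Figure D4:**
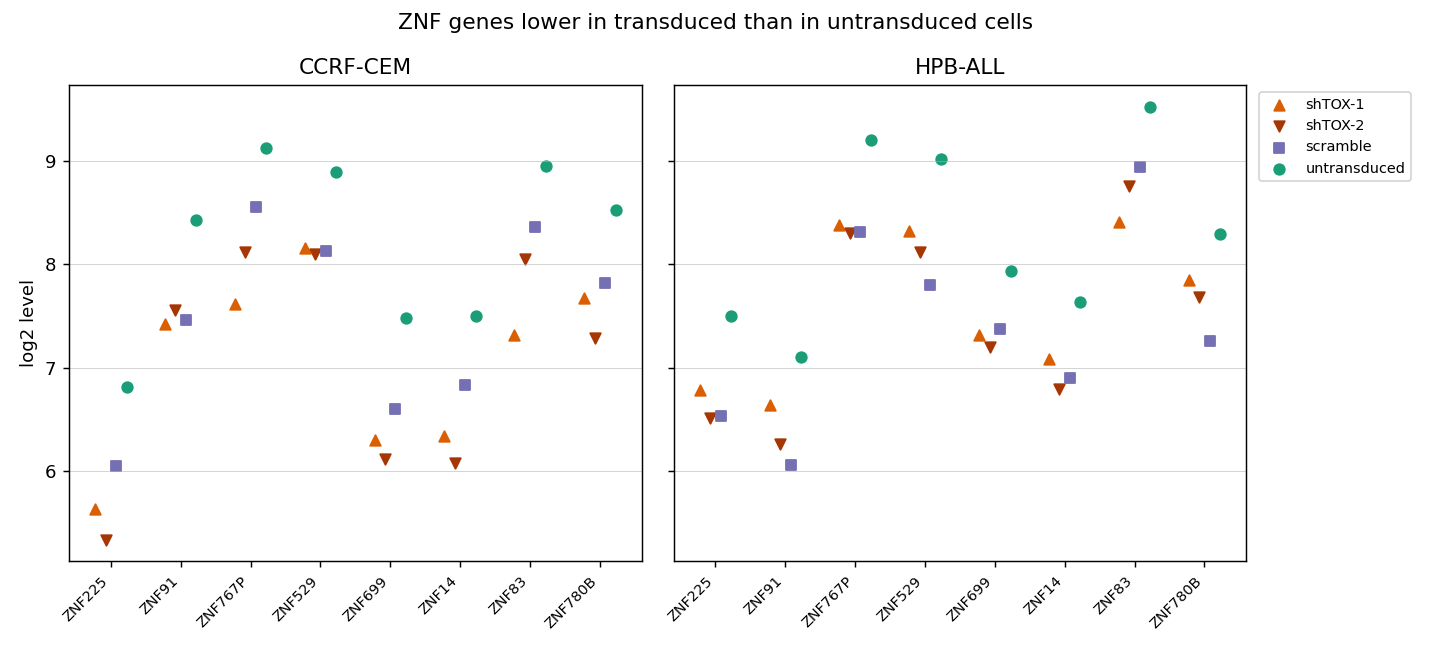
Log2 level of the 8 ZNF genes named as lower in transduced cells, in CCRF-CEM (left) and HPB-ALL (right), with 1 point per array and a symbol per construct. In each gene and line the untransduced array (green circle) is the highest, as the choice of genes required, for ZNF225 at 6.81 in CCRF-CEM and 7.50 in HPB-ALL.

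ZNF521 had a positive difference that missed the threshold. It was at 10.26, 10.14 and 9.78 on the shTOX-1, shTOX-2 and scramble arrays of CCRF-CEM, against 8.74 in untransduced cells, while in HPB-ALL it was at 10.05, 10.76 and 10.36, against 10.09. In CCRF-CEM the untransduced array lay below the others, in HPB-ALL among them, and the difference over both lines was 0.77 ± 0.25 (adjusted p = 0.091). It was chosen after its values were seen.

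Genes of the machinery that KRAB proteins recruit were partly higher in transduced cells. Of 15 tested genes of the KRAB repression complex, 3 were higher in transduced cells and none was lower (median 0.165), against 4.71% higher, 4.18% lower and a median of 0.0305 over all tested genes. The difference was positive for 10 of the 15 and negative for 5, while 54% of all tested genes were positive. TRIM28 was at 10.96, 11.15 and 10.96 on the shTOX-1, shTOX-2 and scramble arrays of CCRF-CEM, against 10.57 in untransduced cells, and at 11.03, 11.18 and 10.88 in HPB-ALL, against 10.50. The untransduced array was the lowest in each line, by 0.46 ± 0.12 (adjusted p = 0.047). The others were CBX5, which encodes heterochromatin protein 1 alpha (0.79 ± 0.16), and SUV39H1, an H3 lysine 9 methyltransferase (0.98 ± 0.14). Among 8 DNA methylation genes, DNMT1 (0.58 ± 0.13), its partner UHRF1 (0.68 ± 0.14) and DNMT3B (1.12 ± 0.28) were higher, and of 3 HUSH complex genes none was called. In scramble against untransduced cells alone, 1 of the 15 and none of the 8 were called. How the calls of these lists change when an array is left out was not examined. A list of genes of G2 and mitosis, added after earlier results were seen, moved with these comparisons: 16 of its 17 tested genes were higher in transduced cells, with a median of 0.707. T cell markers had negative differences in 8 of 8 tested genes, none of them called (median -0.379). The part of either list in the ZNF result was not tested.

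The count of calls depended on single arrays. Without the CCRF-CEM untransduced array 0 ZNF genes were called, and without the HPB-ALL one 2 were called, ZNF699 lower (-1.10) and ZNF521 higher (1.28). Without the HPB-ALL scramble array 11 were called and without the CCRF-CEM shTOX-2 array 22. The difference stayed negative for 232 to 257 of the 315 genes whichever array was left out. Of the controls, scramble is the one that shares the transduction: against untransduced arrays, scramble called 2 ZNF genes lower, ZNF529 (-0.99) and ZNF91 (-1.01), or 0.635% (background 0.482% lower and 1.06% in either direction), with 249 negative and a median of -0.248. The shTOX arrays against the same untransduced arrays called 36 lower (11.4%; background 5.64%) and 0 higher (background 6.18%; 7 at an unadjusted p under 0.05), with 239 negative and a median of -0.245. These comparisons share the untransduced arrays, and the scramble group holds 2 arrays where the shTOX group holds 4. Without the CCRF-CEM shTOX-1, the CCRF-CEM shTOX-2 or the HPB-ALL shTOX-2 array the second count was 21, 21 and 22, and without the CCRF-CEM or the HPB-ALL untransduced array 0 and 8.

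The third comparison, and the one the study was designed for, set the 4 shTOX arrays against the 4 scramble and untransduced arrays. No ZNF gene was called in limma with Benjamini-Hochberg adjustment (background 0%), and 46 had an unadjusted p under 0.05, of which 40 were lower and 6 higher. These are 14.6% of the ZNF genes (12.7% lower and 1.9% higher), against 14.3% of all tested genes (6.85% lower and 7.45% higher). The difference was negative for 206 of 315 (65.4%), with a median of -0.108 against 0.0262 over all tested genes. Both shTOX arrays lay below both controls in each line for 19 genes (6.03%; background 4.99%) and above them for 7 (2.22%; background 6.36%), and on opposite sides in the lines for 13 (4.13%; background 5.16%). The untransduced arrays enter the controls here, so genes that were highest in untransduced cells also have lower values in this comparison.

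ZNF655, or VIK, a zinc finger protein that binds the signalling protein VAV1, had the smallest p. It was at 7.89 and 7.96 with shTOX-1 and shTOX-2 in CCRF-CEM, against 8.46 in scramble and 8.83 in untransduced cells. In HPB-ALL it was at 8.23 and 7.89 with shTOX-1 and shTOX-2, against 8.69 in scramble and 8.88 in untransduced cells. Each shTOX array lay below both controls of its line, with differences of -0.72 in CCRF-CEM and -0.73 in HPB-ALL, and the pooled difference of -0.72 ± 0.13 had an adjusted p of 0.283. Against scramble alone it was -0.58 ± 0.14 (adjusted p = 0.899). Next by smallest p among the 19 genes of this pattern were ZNF700 (-0.52 ± 0.13), ZNF83 (-0.81 ± 0.21), ZNF692 (-0.44 ± 0.12), ZNF589, a KRAB protein first found in blood progenitors (-0.54 ± 0.15), and ZNF160 (-0.48 ± 0.15), at adjusted p-values of 0.292 to 0.301. ZNF655, ZNF700, ZNF83 and ZNF589 are also among the 36 that were lower in transduced than in untransduced cells.

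ZNF143, an activator bound at many promoters, had the smallest p among the 7 genes with the shTOX arrays above both controls in each line. It was at 8.50 and 8.27 with shTOX-1 and shTOX-2 in CCRF-CEM, against 8.15 in scramble and 8.20 in untransduced cells, and at 8.31 and 8.38 in HPB-ALL, against 8.0 and 7.62. The shTOX arrays were above both controls in each line, closely so in CCRF-CEM, and the pooled difference was 0.37 ± 0.13 (adjusted p = 0.302). ZNF622, a factor in maturation of the large ribosomal subunit, was at 7.87 and 7.58 with shTOX-1 and shTOX-2 in CCRF-CEM, against 7.53 in scramble and 7.42 in untransduced cells, and at 8.19 and 8.02 in HPB-ALL, against 7.83 and 7.65 (0.30 ± 0.12, adjusted p = 0.319). Next among the 7 were ZNF787 (0.26 ± 0.10), ZNF326, of the DBIRD splicing complex (0.28 ± 0.11), ZNF74 (0.21 ± 0.11) and ZNF512B (0.17 ± 0.11), none of which passed the test.

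**Figure D5:**
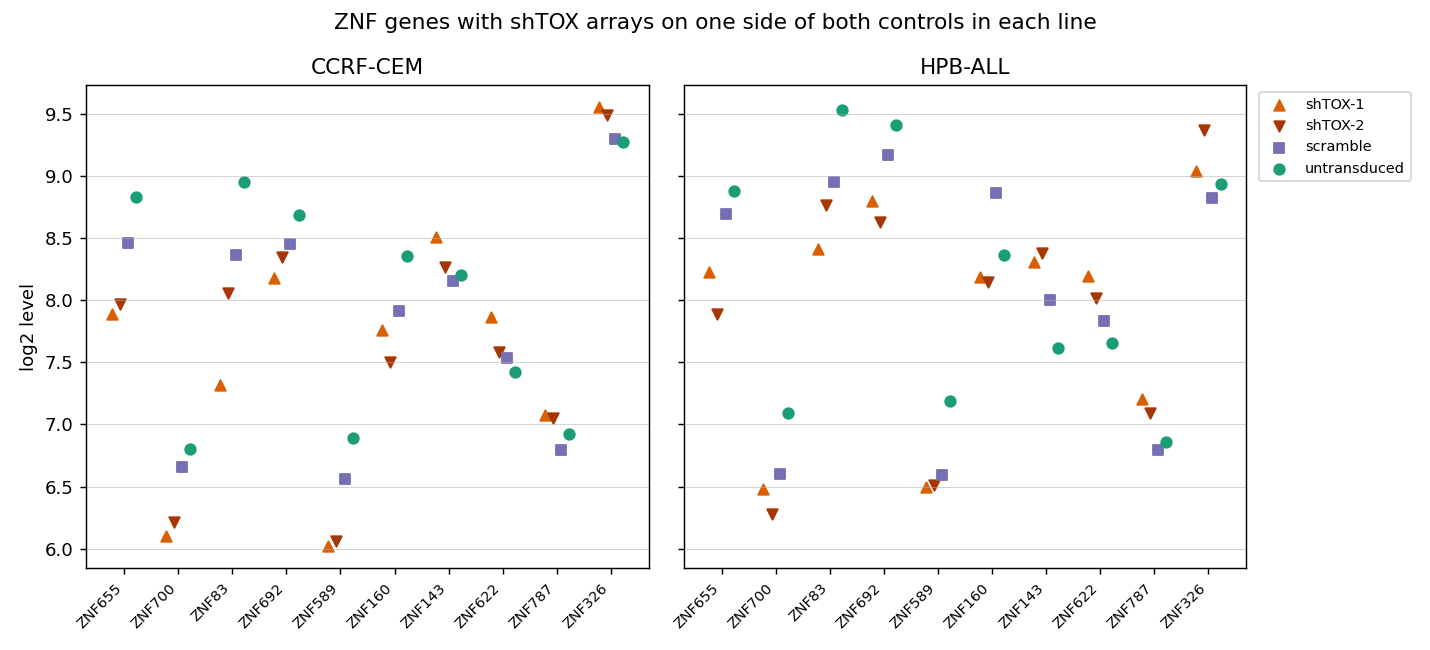
Log2 level of 10 ZNF genes with both shTOX values of each line above, or below, its 2 control values (the 6 lower and the first 4 higher by p), in CCRF-CEM (left) and HPB-ALL (right), with 1 point per array and a symbol per construct. In ZNF655 the shTOX arrays (triangles) lie at 7.89 and 7.96 in CCRF-CEM and at 8.23 and 7.89 in HPB-ALL, below scramble and untransduced cells, and none of the 10 differences passed the test.

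The fourth comparison used scramble as the only control. No ZNF gene was called, 21 had an unadjusted p under 0.05 (9 higher and 12 lower; 6.67%, against 5.14% of all tested genes), 135 of 315 were negative and the median was 0.0263, against 0.016 over all tested genes. The arrays of the lines went apart here: in CCRF-CEM the shTOX-1 and shTOX-2 arrays lay below scramble for 200 (63.5%) and 226 (71.7%) of the genes, and in HPB-ALL for 83 (26.3%) and 116 (36.8%). Over all tested genes, 44.3% (shTOX-1) and 55.4% (shTOX-2) were below scramble in CCRF-CEM cells, against 43.3% and 48.3% in HPB-ALL cells. Both shTOX arrays lay on opposite sides of scramble in the lines for 96 genes (30.5%; background 27.4%), on the higher side in both for 32 (10.2%; background 11.9%) and on the lower side in both for 34 (10.8%; background 9.69%). By smallest p, the lower genes after ZNF655 were ZNF385A (-0.57 ± 0.19), ZNF37A (-0.51 ± 0.18) and ZNF253 (-0.51 ± 0.19). The higher ones were ZNF256 (0.52 ± 0.15), ZNF71 (0.43 ± 0.14), ZNF134 (0.37 ± 0.13) and ZNF585B (0.56 ± 0.20), all with an adjusted p of 0.93. With 1 scramble array per line, a shift of that array cannot be told apart from a difference of the shTOX cells.

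Within each line, shTOX against both controls had negative differences for 249 of 315 ZNF genes in CCRF-CEM (median -0.195) and for 161 in HPB-ALL (median -0.000825), with 0 called in either line (background 0% in both; 38 and 12 at an unadjusted p under 0.05). Over all tested genes 45.7% were negative in CCRF-CEM and 46.8% in HPB-ALL. The HPB-ALL count was 92 without its untransduced array and 214 without its scramble array. The difference between the lines, tested as an interaction, called no gene (background 0%; 13 at an unadjusted p under 0.05) and had a median of -0.212. The smallest p-values belonged to ZNF395 (1.02 ± 0.30), ZNF710 (0.63 ± 0.26) and ZNF354A (0.44 ± 0.27) on the side of CCRF-CEM, and to ZNF45 (-0.84 ± 0.27), ZNF587B (-0.91 ± 0.30) and ZNF136 (-0.83 ± 0.28) on the other, all at an adjusted p of 0.973. The hairpins, set against each other as shTOX-2 minus shTOX-1, gave 0 calls (background 0%; 5 at an unadjusted p under 0.05) and a median of -0.0443, against -0.0419 over all tested genes. ZNF660 (0.66 ± 0.17, adjusted p = 0.85), ZNF114 (0.44 ± 0.20) and ZNF43 (0.37 ± 0.17) had the smallest p among genes higher with shTOX-2. ZNF280B (-0.54 ± 0.23), ZNF597 (-0.49 ± 0.21) and ZNF23 (-0.42 ± 0.18) had the smallest p among those lower. TOX itself was lower with shTOX-2 than with shTOX-1 in both lines.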

How the data were processed

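Total RNA of 8 samples labelled CCRF-CEM or HPB-ALL was hybridised to Affymetrix GeneChip arrays with the WT Plus labelling protocol, per the labels. The deposited table holds 1 normalized value per probe set and array; the values were read as log2 because of their range and their array medians of 4.62 to 4.71, and how the authors corrected background and normalized is not given in the sources used here. Neither scan dates nor batches are given. Of 53617 probe sets, 16098 carried a gene symbol in the platform's annotation, which can be old, and 37519 without one were not used.

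The brightest probe set stood for each of 14884 genes, and the 8930 genes whose mean reached the 40th percentile, 5.18, were tested. Differences were fitted with limma 3.58.1 (lmFit, eBayes without trend) in R 4.3.3 on all 8 arrays, with line and shTOX, line and treatment, or a mean per line and state as terms, and the transduced difference gives the shTOX and scramble means equal weight, and p-values were adjusted with Benjamini-Hochberg over all tested genes. A call is an adjusted p under 0.05, ± is the standard error, and the script was tested on simulated data. Genes were named by rule: the 12 higher and 12 lower between the lines by size among calls with separate arrays, 8 and 8 for transduced cells, 6 and 6 for shTOX by smallest p with both shTOX arrays on 1 side, 4 and 4 against scramble, 3 and 3 for the difference between lines and for the hairpins, the brightest 10, called genes of each list, and runs of neighbours. The set of genes and the lists were chosen with earlier results of these data known. Genes matched RefSeq names, chromosomes and order by gene ID for all 315; no coordinates of the array's own build are used. Alternatives covered the probe set rule, the filter, quantile normalization, the eBayes trend, the level threshold, the line term, leaving out arrays, and the construct as a block.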

Additional observations from a re-analysis of the deposited data

Results flagged for a closer look

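The 119 ZNF genes of the set that were named by comparison, brightness or a run of neighbours, or belong to a list, give 238 groups of 4 arrays (1 gene in 1 line). These were examined for an array far from the other 3 by Dixon's gap over the range, and 14 were found; chance alone gives about 1 in 20. In 10 of the 14 the array was an untransduced one. Some of the genes, ZNF529, ZNF91 and ZNF767P among them, were named because their untransduced array lay outside the other 3 in both lines. The count of untransduced arrays is therefore partly fixed by the choice of genes. In untransduced CCRF-CEM cells, ZNF529 (8.892), ZNF91 (8.429) and ZNF284 (8.391) were above the other arrays of the line and ZNF146 (9.289) was below them. In untransduced HPB-ALL cells, ZNF767P (9.203), ZNF302 (8.927), ZNF649 (8.764), ZNF195 (8.414) and ZNF589 (7.192) were above the others and ZNF687 (8.035) was below them. In shTOX-1 CCRF-CEM cells ZNF660 (7.016) and ZNF354A (5.991) were below the others. In HPB-ALL, ZNF280D was below the others with shTOX-2 (3.868), in a line where all its arrays lay under the filter level, and ZNF134 was below the others in scramble cells (7.947).

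In 7 of these genes the shTOX values were above both controls in one line and below both in the other. The CCRF-CEM difference minus the HPB-ALL difference was 1.02 for ZNF395, -0.363 for ZNF765, -0.529 for ZNF830, -0.531 for ZNF335, -0.632 for ZNF561, -0.83 for ZNF136 and -0.909 for ZNF587B. In limma's interaction test none passed, with an adjusted p of 0.973 each.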

How the results depend on the processing

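Results kept their direction and their side of the threshold except as follows. Leaving out 1 array at a time changed the majority sign of the ZNF genes in some comparisons. For shTOX against scramble, 101 to 200 of the 315 genes were then negative, against 135 with all arrays. For shTOX-2 against shTOX-1, 144 to 223 were negative, against 187. For shTOX against controls within HPB-ALL, 92 to 214 were negative, against 161. Between the lines, 65 genes were called when a mean of at least 7 was asked of a ZNF gene, against 101, since fewer genes then enter. Scramble against untransduced cells gave 1 call without the filter, 8 with the filter at the 60th percentile and 6 with a variance trend, against 2; the cause was not tested. Leaving out 1 array at a time gave 73 to 121 calls between the lines, 0 to 45 for transduced, 0 to 44 for shTOX and 0 to 2 for scramble against untransduced cells, and 0 in all other comparisons; where an arm then holds 1 array, it is assumed to vary like the others. The scramble count was 1 without the CCRF-CEM scramble or the HPB-ALL shTOX-1 array and 0 without either shTOX-2 array, the HPB-ALL scramble array or either untransduced array. The replicate numbers name hairpins, and the shTOX-1 deviations of the lines correlated at only 0.0909 over the ZNF genes (0.225 over all tested genes), so the arrays share a number and are not treated as pairs. With the construct as a replicate block the calls were 125 between the lines, 34 for transduced and 34 for shTOX against untransduced cells, 0 for scramble against untransduced cells, and 0 for shTOX against controls or scramble. Quantile normalization gave 59 higher and 47 lower calls between the lines, against 50 and 51. Of 222 refits of the named genes of the transduced comparison, 22 lost the call, all of them lower genes, and no named gene of any comparison reversed. Signal near background limits the size of the line differences, and 1 array per line and construct limits every test.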

Other observations

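MPO, a granule enzyme of myeloid cells, had a mean below 6 but was uneven in HPB-ALL, at 5.10, 7.94 and 7.03 (log2) on the shTOX-1, shTOX-2 and scramble arrays, against 4.83 in untransduced cells. In CCRF-CEM it was at 5.45, 4.94 and 4.47, against 4.65. The other myeloid markers measured (CD14, CD163, CSF1R and LYZ) lay under the filter level.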
